A study of Mus musculus with 20 samples.

Results

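Hypothalamus from mice that ate a risperidone diet freely was compared with hypothalamus from mice that ate a control diet freely. The comparison holds 14 of the 20 RNA sequencing libraries of the series, chosen by their labels: 7 from the risperidone ad libitum group and 7 from the control ad libitum group. The labels give every mouse as wild type on a C57BL/6 background, with 4 weeks of risperidone diet in the treated group, and give no age, sex or dose of the drug. They describe each sample as a slice of hypothalamus, so that neighbouring tissue can enter a library. The other 6 libraries, from pair-fed mice on the risperidone diet, entered the model as a group of their own. Their means are quoted for the genes that passed the test with all libraries and for some others. No label states that the libraries of a group were from different mice. The p-values therefore measure only the spread between these samples, which can be technical. Every comparison is given for all 7 against 7 libraries and again without ad libitum libraries 1 and 3, which stood apart for the reasons given below.

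Risperidone, an atypical antipsychotic, is an antagonist of serotonin 2A and dopamine D2 receptors and also binds adrenergic and histamine receptors. Weight gain is a well-known side effect. The hypothalamus regulates feeding through arcuate neurons that make either the peptides of Pomc, which reduce feeding, or Agrp and Npy, which promote it. Both act on neurons that carry the melanocortin 4 receptor, which the title of the series names as the target in question.

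The 7 control libraries held between 17352462 and 18493768 counts. The ad libitum risperidone libraries held between 17316043 and 18606543, except library 3 with 9748005. In library 3 a list of ribosomal RNA-like genes took 22.4% of the counts, against 2.26% to 4.40% in the remaining ad libitum libraries and 3.02% to 4.35% in control. Library 1 stood apart by region: the mean log2 CPM of markers of cortex, hippocampus and amygdala was 5.81 there. It was 2.60 to 3.58 in the other ad libitum risperidone libraries and 2.48 to 2.90 in control. Library 2 held the 3.58 and library 5 held 2.98, each above every control. Libraries 2 and 5 were kept when libraries 1 and 3 were left out. Choroid plexus markers were also highest in library 2, at 3.03 against 0.89 to 2.18 in control. CPM is the usual depth-scaled unit for counts, here with TMM scaling of each library. Defining hypothalamic markers were present in every library, with Nkx2-1 between 23.3 and 36.2 CPM and Pmch between 164 and 461 CPM over the 14 libraries.

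Few genes passed the test when all libraries were kept. In 7 against 7 libraries 11 of 17893 genes (0.0615%) had a Benjamini-Hochberg adjusted p under 0.05 in the quasi-likelihood test of edgeR, of which 3 rose (0.0168%) and 8 fell (0.0447%). Without libraries 1 and 3, 48 of 17978 genes (0.267%) passed, 22 risen (0.122%) and 26 fallen (0.145%). These 48 included all 11 of the first fit, and all 48 had the same sign in 7 against 7 libraries. Unadjusted p fell under 0.05 for 2345 genes (13.1%) in the first fit and for 2247 (12.5%) in the second. Of the 17893 genes of the first fit, 8428 were lower and 9465 higher in it. In the second fit 8990 of them were lower and 8883 higher. Counts of list members below are to be read beside these shares. The common biological coefficient of variation was 11.26% with all libraries and 6.936% without libraries 1 and 3. The changes were small: among the 48 genes the absolute log2 fold change lay between 0.20 and 0.96, with a median of 0.39. The number of calls moved with single libraries. In 7 against 7 it was 0 when any of control libraries 1 to 5, ad libitum library 2 or ad libitum library 7 was left out, where between 1824 and 2303 genes still had an unadjusted p under 0.05. Leaving out control library 6 gave 1 call. Leaving out ad libitum library 6, 4 or 1 gave 5, 27 and 35. DESeq2 called 110 genes and limma-voom 51 on the 7 against 7 libraries. In the fit with libraries 1 and 3 left out, the count was 12, 15, 25 and 26 when control library 4, 2, 1 or 3 was dropped in addition, and 84 when control library 5 was. Dropping ad libitum library 6 or 2 in addition gave 13 and 19.

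**Figure D1:**
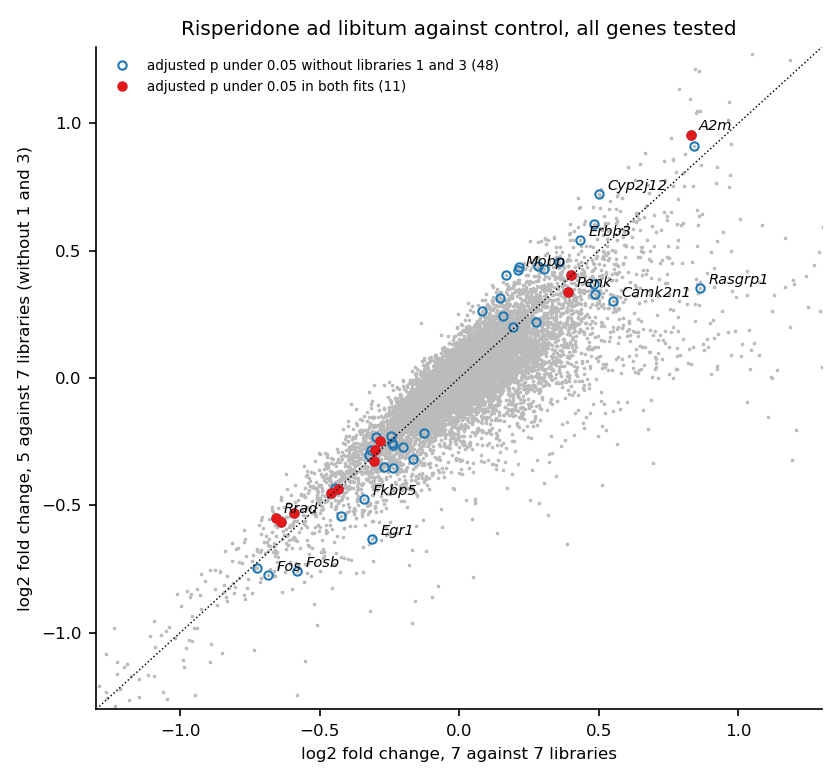
Log2 fold change of ad libitum risperidone against control for each gene tested in both fits, with all 7 against 7 libraries on the x axis and without ad libitum libraries 1 and 3 on the y axis. Filled circles are the 11 genes that passed in both, open circles the others of the 48 that passed without libraries 1 and 3, and the dotted line marks equal values. Egr1 and the myelin gene Mobp lie farther from 0 without these libraries, Rasgrp1 and Camk2n1 closer to it; 78 genes fall outside the range of 1.3 plotted, of which 0 passed.

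The plot of both fits shows the effect of leaving out libraries 1 and 3 gene by gene. Of the 48 genes, 30 had a smaller absolute change in 7 against 7 libraries than without libraries 1 and 3. The libraries of the groups did not overlap for 12 of the 48 in 7 against 7, where 0.33% of all 17893 genes did not overlap (0.106% higher, 0.224% lower). In 5 against 7 they did not overlap for 30 of the 48, 11 risen and 19 fallen, against 1.15% of all genes (0.592% higher, 0.559% lower). The 48 were chosen for a small p on libraries that both comparisons hold, so neither count is independent of the calls. Of the 48, 45 are protein coding and 14 overlap a gene on the opposite strand. The strand setting of the counting is not given, so counts of those 14, Fkbp5 among them, are uncertain. The same holds for genes outside the 48 with such an overlap, among them Agrp, Errfi1 and Adra1d.

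A2m, which codes for the protease inhibitor alpha-2-macroglobulin, had the largest rise among the 11 genes. It lies on chromosome 6 from 121635376 to 121679227 in GRCm38 (ENSMUSG00000030111, + strand). Control libraries ranged from 11.1 to 15.5 CPM with a median of 11.8, and ad libitum risperidone libraries from 11.7 to 29.3 with a median of 23.4. Of the 7 risperidone libraries 6 lay above every control library, and library 1, at 11.7, lay within the control range. The log2 fold change was 0.83 (SE 0.143, adjusted p = 0.0343, edgeR) in 7 against 7 and 0.96 (SE 0.101, adjusted p = 3.89e-05) without libraries 1 and 3. A2m passed in 15 of 26 other settings of the first fit, with adjusted p between 3.81e-05 and 0.0840, and in all 23 of the second. The pair-fed libraries, compared here with the same controls, held 17.95 ± 2.89 CPM (SD, n = 6).

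Penk, the precursor of the enkephalin opioid peptides, ranged from 116 to 135 CPM in control (median 123) and from 146 to 206 CPM in ad libitum risperidone (median 157). All 7 risperidone libraries lay above every control library, and the highest was library 1. Its log2 fold change was 0.39 (SE 0.0655, adjusted p = 0.0343, edgeR) and 0.34 (SE 0.0507, adjusted p = 0.00274) without libraries 1 and 3. Penk is on chromosome 4 from 4133531 to 4138819 (− strand, ENSMUSG00000045573) and overlaps A830012C17Rik on the opposite strand. It was the 1 gene called among 27 tested neuropeptide genes outside the feeding circuit, whose median log2 fold change was −0.09, against 0.0077 over all genes, and −0.19 without libraries 1 and 3, against −0.00097. Pdyn, the precursor of dynorphin, went the other way, from 72.6 ± 5.21 CPM (SD, n = 7) in control to 56.7 in ad libitum risperidone, a log2 value of −0.36 with an adjusted p of 0.131. Gal, which codes for galanin, ranged from 29.5 to 40.1 CPM in control and from 20.1 to 30.8 in ad libitum risperidone, −0.37 on the log2 scale (adjusted p = 0.0842), and was called by DESeq2 along with Pdyn. Of the 27 genes, 20 were lower and 13 had an unadjusted p under 0.05 in 7 against 7.

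Spry1, which restrains signalling from receptor tyrosine kinases, also rose in 7 against 7. It stood at 5.52 to 6.64 CPM in control (median 5.73) and at 6.46 to 8.71 in ad libitum risperidone (median 7.89). Library 6 overlapped the controls and the other 6 libraries did not. The log2 fold change was 0.40 in both fits (adjusted p = 0.0347 and 0.0286, edgeR). It lies on chromosome 3 from 37639947 to 37644598 (+ strand, ENSMUSG00000037211) and overlaps Gm42922 on the opposite strand. Among 15 genes that encode feedback inhibitors and readouts of ERK signalling, Spry1 was the 1 that passed (edgeR), with a median log2 fold change of 0.19 for the list and 12 members higher. Without libraries 1 and 3 the median was 0.06. Errfi1, a feedback inhibitor of the EGF receptor, was lower, at 41.7 to 50.5 CPM in control and 34.8 to 40.8 in ad libitum risperidone with no overlap, but its adjusted p was 0.0725 and, without libraries 1 and 3, 0.0519.

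**Figure D2:**
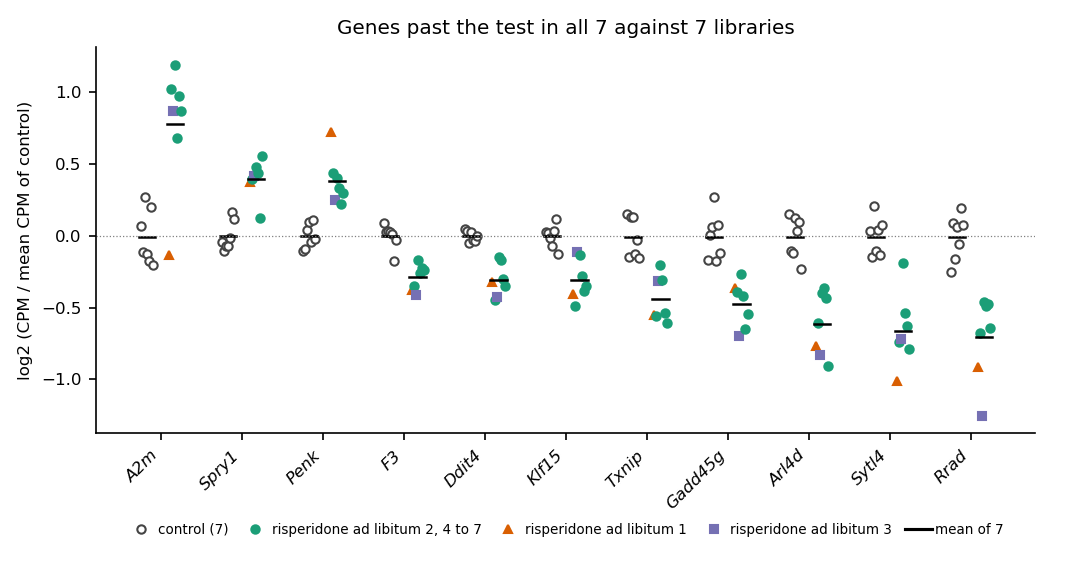
CPM of each library relative to the control mean, on a log2 scale, for the 11 genes that passed in 7 against 7 libraries. Points are libraries, with ad libitum libraries 1 and 3 marked by their own symbols, and bars are means of 7. The 8 genes that fell have most risperidone libraries below all controls, and library 1 lies with the controls for A2m.

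The genes that fell included targets of the glucocorticoid receptor and genes raised in fasting. The plot of the 11 genes shows their libraries. Klf15, a transcription factor that glucocorticoids induce and that regulates amino acid and glucose metabolism, ranged from 43.6 to 51.6 CPM in control (median 48.2) and from 33.9 to 43.9 in ad libitum risperidone (median 37.4). Library 3, at 43.9, was the 1 risperidone library that reached the control range. The log2 fold change was −0.31 (SE 0.0545, adjusted p = 0.0343, edgeR) in 7 against 7 and −0.32 (adjusted p = 0.00534) without libraries 1 and 3. Ddit4, a stress-induced inhibitor of mTOR complex 1, was at 29.0 to 31.03 CPM in control (median 30.0) and 22.0 to 27.0 in ad libitum risperidone (median 24.1), with no overlap. It fell by 0.30 in log2 units (SE 0.0529, adjusted p = 0.0343), and by 0.28 without libraries 1 and 3. Klf15 lies on chromosome 6 from 90462576 to 90475238 (+ strand, ENSMUSG00000030087) and Ddit4 on chromosome 10 from 59949669 to 59951834 (− strand, ENSMUSG00000020108).

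Most of the glucocorticoid-responsive list was lower. Of 24 genes tested, 20 were lower and 4 higher in each fit, with a median log2 fold change of −0.21 in 7 against 7 and −0.18 without libraries 1 and 3. Of all 17893 genes, 8428 were lower in 7 against 7 and 8990 without libraries 1 and 3. The test called 2 of the 24 fallen in the first fit and 4 in the second, where Pdk4 and Fkbp5 joined Klf15 and Ddit4. Over all genes 0.0447% and 0.145% were called fallen. Pdk4, a kinase that shuts off pyruvate oxidation in fasting, was at 14.2 to 17.0 CPM in control (median 14.5). In ad libitum risperidone it was 8.10, 10.1, 13.8, 14.3, 9.71, 10.8 and 10.1 CPM in libraries 1 to 7. Library 4 alone reached the control range, and without libraries 1 and 3 Pdk4 fell by 0.43 on the log2 scale (adjusted p = 0.0286, edgeR). Fkbp5, a co-chaperone that restrains the glucocorticoid receptor and is induced by it, was named because it completes this count. Its controls ranged from 50.9 to 70.95 CPM and ad libitum libraries 1 to 7 held 53.5, 34.8, 64.6, 53.1, 39.7, 46.4 and 41.0. Libraries 1 and 3 lay inside the control range, as did library 4, and the log2 fold change was −0.34 with all libraries (adjusted p = 0.224) and −0.48 without libraries 1 and 3 (adjusted p = 0.0293). In edgeR, 14 of the 24 had an unadjusted p under 0.05 in 7 against 7, and 16 without libraries 1 and 3. Over all genes these shares were 13.1% and 12.5%. Among the 4 higher genes was Lcn2, an acute phase lipocalin, whose edgeR value in 7 against 7 was 2.25 in log2 units, with an SE of 0.754. It did not pass (adjusted p = 0.235). Its controls ranged from 0.0559 to 3.35 CPM and its ad libitum libraries from 0.484 to 11.3 CPM, with the highest values in ad libitum libraries 3 and 6.

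**Figure D3:**
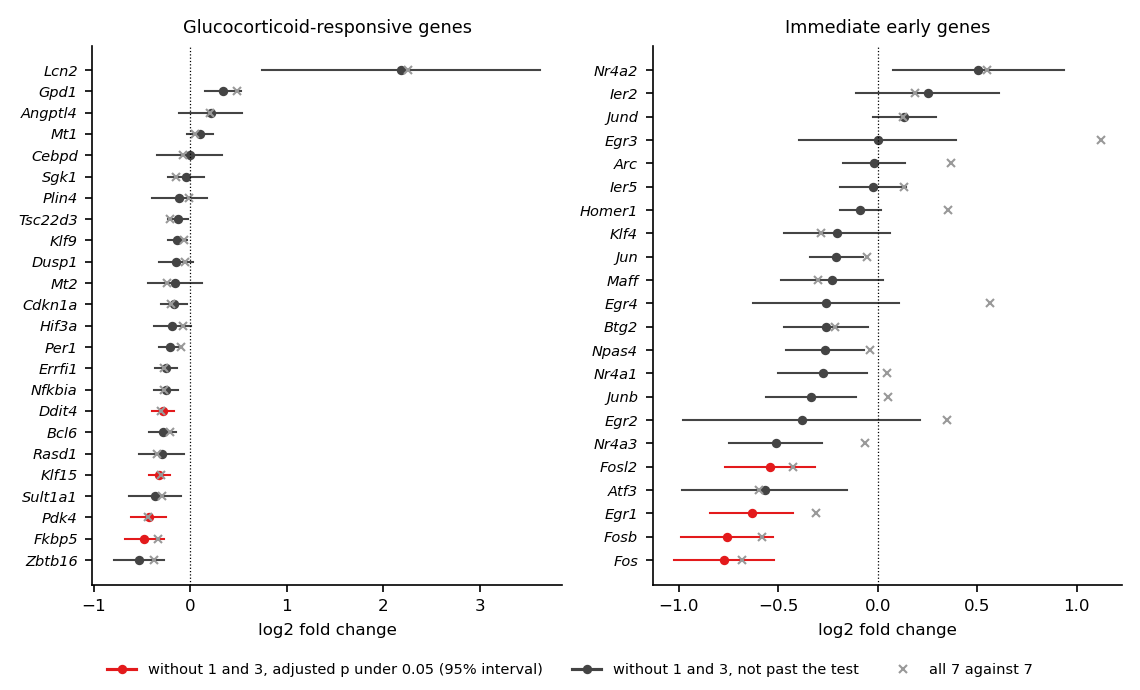
Log2 fold change of ad libitum risperidone against control for each glucocorticoid-responsive gene (left) and immediate early gene (right). Circles with 95% intervals are values without ad libitum libraries 1 and 3, red where the adjusted p was under 0.05, and crosses are values with all 7 against 7 libraries. Most crosses lie near their circle on the left, while Egr1, Egr3 and several other immediate early genes differ between the fits.

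A second list held 13 genes of FOXO signalling, fasting and the alpha-arrestins, which take up part of the same ground since Klf15 and Pdk4 are in it too. Its median log2 fold change was −0.06 in each fit, with 2 genes fallen in 7 against 7 and 4 without libraries 1 and 3. Txnip, an alpha-arrestin that limits glucose uptake, ranged from 31.1 to 38.5 CPM in control (median 34.0) and from 22.8 to 30.1 in ad libitum risperidone (median 23.9). The groups did not overlap, and Txnip fell by 0.44 in log2 units (SE 0.0811, adjusted p = 0.0384, edgeR). It lies on chromosome 3 from 96557957 to 96561883 (+ strand, ENSMUSG00000038393) and overlaps Gm15441 on the opposite strand. Irs2, an adaptor of the insulin receptor that FOXO factors induce in fasting, was at 120 to 133 CPM in control and at 123, 109, 125, 113, 98.4, 99.5 and 107 CPM in ad libitum libraries 1 to 7. Libraries 1 and 3 were the 2 inside the control range. Irs2 fell by 0.27 without them (SE 0.0423, adjusted p = 0.00391) and had a value of −0.20 (adjusted p = 0.138) with them, and it overlaps 9530052E02Rik on the opposite strand. The corticosteroid axis itself, 9 genes with Crh and its receptors and binding protein, had a median of 0.05 and, without libraries 1 and 3, of −0.0082. Its members passed in 0 cases with edgeR, DESeq2 or limma-voom in either fit, with 4 at an unadjusted p under 0.05.

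Of the small GTPases of the RGK and ARL4 families, 2 fell. Rrad, an RGK protein that inhibits voltage-gated calcium channels, ranged from 18.6 to 25.3 CPM in control (median 23.1) and from 9.30 to 16.1 in ad libitum risperidone (median 14.2). Arl4d, a GTPase of membrane traffic, ranged from 15.3 to 20.01 (median 18.4) and from 9.61 to 14.0 (median 11.8). Neither gene had overlapping groups, and their log2 fold changes were −0.66 (SE 0.112, adjusted p = 0.0343, edgeR) and −0.59 (SE 0.112, adjusted p = 0.0440). Gem, another RGK protein, was at 6.00 to 8.01 CPM in control and 2.60 to 5.32 in ad libitum risperidone, also without overlap, but its value of −0.70 had an adjusted p of 0.0746. The list of 7 such genes had a median of −0.10 and, without libraries 1 and 3, of −0.05 with 6 of 7 lower. Pair-fed libraries held 25.6 ± 4.68 CPM (SD, n = 6) of Rrad, 9.69 ± 1.95 of Arl4d. Rrad lies on chromosome 8 from 104628070 to 104631327 (− strand, ENSMUSG00000031880), overlapping Gm33023 on the opposite strand, and Arl4d on chromosome 11 from 101665541 to 101667832 (+ strand, ENSMUSG00000034936).

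Sytl4, a granule docking protein also known as granuphilin, ranged from 27.6 to 35.4 CPM in control (median 31.3) and from 15.2 to 26.8 in ad libitum risperidone (median 18.6). The groups did not overlap, and it fell by 0.64 in log2 units (SE 0.116, adjusted p = 0.0346, edgeR). It was the 1 call among 7 tested genes of the synaptotagmin-like family and its Rab27 partners, whose median was −0.09. Gadd45g, a growth arrest and DNA damage gene, ranged from 17.6 to 24.0 CPM (median 20.01) and from 12.3 to 16.5 (median 14.9), again without overlap, and fell by 0.46 (SE 0.0829, adjusted p = 0.0343). It was the 1 call among 12 growth arrest genes, whose median was 0.0057. F3, tissue factor, which starts coagulation and is made by astrocytes in brain, ranged from 68.0 to 81.6 CPM in control (median 78.1) and from 57.7 to 68.3 in ad libitum risperidone (median 64.3). Library 4 was the 1 risperidone library inside the control range, and F3 fell by 0.29 (SE 0.0486, adjusted p = 0.0343). Pair-fed libraries had means of 25.5 CPM of Sytl4, 15.7 of Gadd45g and 60.7 of F3. For genes described above, the pair-fed means were 162 CPM of Penk, 6.54 of Spry1, 34.1 of Klf15, 21.7 of Ddit4 and 24.8 of Txnip. Sytl4 lies on chromosome X from 133936385 to 133981812 (− strand, ENSMUSG00000031255), Gadd45g on chromosome 13 from 51846678 to 51848468 (+ strand, ENSMUSG00000021453) and F3 on chromosome 3 from 121723537 to 121735048 (+ strand, ENSMUSG00000028128).

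Immediate early genes, which neurons switch on within minutes of strong activity, were lower in the ad libitum risperidone libraries once libraries 1 and 3 were left out. Of 22 such genes 19 were then lower and 4 were called fallen, namely Fos, Fosb, Egr1 and Fosl2, with a median log2 fold change of −0.26 and 12 at an unadjusted p under 0.05. With all libraries 11 were lower, the median was 0.0035, and edgeR called 0, with 7 at an unadjusted p under 0.05, while DESeq2 called 2 fallen and limma-voom 4. Fosl2 was named because it completes the count of 4. Over all genes 0.145% were called fallen without libraries 1 and 3, where 8990 of 17893 were lower. The mean log2 CPM of the list was 3.38 to 3.82 in control, 3.21 to 3.54 in ad libitum libraries 2 and 4 to 7, 4.37 in library 1 and 3.04 in library 3. The cortical markers were highest in library 1 too, and their part in its immediate early values was not tested. In bulk tissue, fewer cells of a type and less RNA per cell cannot be told apart, here and in all that follows.

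Fos, which codes for a subunit of the AP-1 transcription factor, ranged from 17.5 to 28.8 CPM in control (median 20.6). Ad libitum libraries 1 to 7 held 20.6, 12, 8.59, 15.8, 10.2, 12.5 and 11.8 CPM. Library 1 sat at the control median and the other 6 lay below every control library. Fosb, another AP-1 subunit, ranged from 13.1 to 19.4 CPM in control (median 16.2), and the ad libitum libraries held 18.99, 12, 8.87, 9.45, 10.05, 8.21 and 8.77. The pattern was the same, with library 1 high and the other 6 below every control. Egr1, a zinc finger transcription factor induced by synaptic activity, ranged from 54.5 to 79.7 CPM in control (median 62.0), and the ad libitum libraries held 115, 47.5, 38.0, 49.8, 30.5, 40.02 and 38.1. Library 1 exceeded all controls and the other 6 lay below them. Without libraries 1 and 3 the log2 fold changes were −0.77 (SE 0.121, adjusted p = 0.00391, edgeR) for Fos, −0.76 (SE 0.111, adjusted p = 0.00243) for Fosb and −0.63 (SE 0.101, adjusted p = 0.00484) for Egr1. With all libraries they were −0.68 (adjusted p = 0.0736), −0.58 (adjusted p = 0.136) and −0.31 (adjusted p = 0.523). Over the 23 other settings of the fit without libraries 1 and 3 each of these 3 genes passed in all 23.

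The pair-fed libraries, which share these controls, held 33.7 ± 4.96 CPM of Fos, 20.6 ± 3.14 of Fosb and 96.3 ± 10.8 of Egr1 (SD, n = 6), against control means of 21.2, 16.4 and 63.9. Fosl2, a further AP-1 subunit, was at 28.6 to 38.9 CPM in control and at 36.1, 30.4, 24.5, 20.4, 24.6, 22.4 and 19 in ad libitum libraries 1 to 7. Libraries 1 and 2 lay within the control range, and Fosl2 fell by 0.54 without libraries 1 and 3 (SE 0.109, adjusted p = 0.0286, edgeR). Nr4a3, an orphan nuclear receptor of the same class of genes, was named after its values were seen. It had 34.2 CPM in library 1 and 8.60 to 11.2 in the other 6 risperidone libraries, all below the control range of 11.9 to 16.3, and its adjusted p without libraries 1 and 3 was 0.0519.

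TGACG is part of TGACGTCA, the cyclic AMP response element, which is the binding motif of CREB, a factor that drives Fos family genes. Promoters of 3 genes that fell are shown, chosen as examples from the 6 that hold TGACG. Each is the RefSeq window of 300 bases on GRCm38.p6, 250 before the annotated start and 50 from it on, written 5′ to 3′ along the gene. Capitals mark TGACG or its reverse complement CGTCA, and TGACGTCA where they overlap. Fos is at chr12:85473640-85473939 (+ strand), Fosb at chr7:19309996-19310295 (− strand) and Arl4d at chr11:101665291-101665590 (+ strand).
Fos: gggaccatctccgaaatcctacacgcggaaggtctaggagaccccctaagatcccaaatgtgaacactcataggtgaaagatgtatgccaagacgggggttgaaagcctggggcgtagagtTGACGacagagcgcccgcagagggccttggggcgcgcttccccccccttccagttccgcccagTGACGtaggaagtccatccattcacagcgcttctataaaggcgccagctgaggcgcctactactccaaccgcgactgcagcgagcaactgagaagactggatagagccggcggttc
Fosb: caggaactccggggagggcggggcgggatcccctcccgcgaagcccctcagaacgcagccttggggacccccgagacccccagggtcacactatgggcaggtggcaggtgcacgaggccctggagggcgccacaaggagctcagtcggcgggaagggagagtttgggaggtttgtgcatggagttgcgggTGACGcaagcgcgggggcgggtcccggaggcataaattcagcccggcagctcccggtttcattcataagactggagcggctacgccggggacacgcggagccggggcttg
Arl4d: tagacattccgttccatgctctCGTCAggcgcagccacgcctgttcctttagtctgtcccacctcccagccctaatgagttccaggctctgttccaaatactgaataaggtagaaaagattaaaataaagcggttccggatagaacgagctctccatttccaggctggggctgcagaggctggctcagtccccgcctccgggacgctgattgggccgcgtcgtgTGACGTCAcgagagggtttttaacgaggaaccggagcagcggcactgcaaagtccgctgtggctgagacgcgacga
Fos has TGACG 2 times, Fosb 1 time, and Arl4d holds the full palindrome TGACGTCA and a further CGTCA. Over all 32851 windows, 20.81% hold TGACG on either strand and 1.79% hold TGACGTCA. Counted by gene, as the called genes are below, 23.05% of the 27025 genes with a window hold TGACG. Windows were found for 33 of the 48 genes called without libraries 1 and 3. TGACG stood in 6 of 20 that fell (Fos, Fosb, Klf15, Net1, Aff1 and Arl4d) and in 3 of 13 that rose (Adgrl4, Mal and Trp53inp2). The called immediate early genes Egr1 and Fosl2 were not among the genes with a match. TGACGTCA stood in 1 of 20 that fell (Arl4d) and 1 of 13 that rose (Trp53inp2), against 2.03% of all genes with a window. CACGTG, the E-box that clock and MYC family factors bind, stood in 6 of 20 that fell and 1 of 13 that rose, against 8.09% of all genes with a window and 7.15% of all windows. AGAACA, a half-site of the glucocorticoid receptor, stood in 0 of 20 and 0 of 13, against 21.28% of all genes with a window and 18.97% of all windows. A match is a match of letters and not evidence of binding, and the absence of a match concerns these windows alone.

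**Figure D4:**
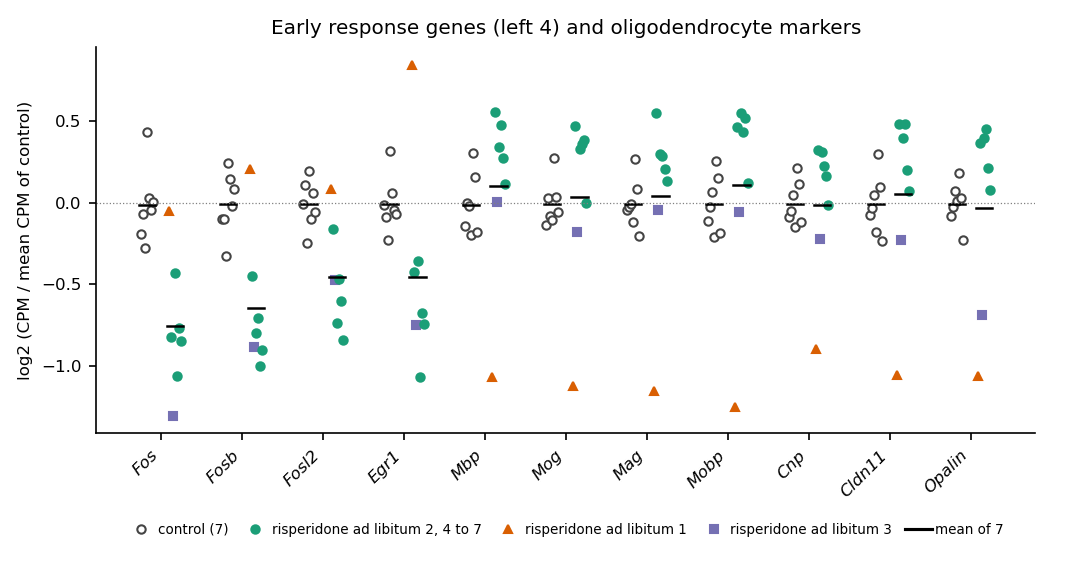
CPM of each library relative to the control mean, on a log2 scale, for the 4 immediate early genes that fell without ad libitum libraries 1 and 3 (left) and 7 oligodendrocyte markers. Points are libraries and bars are means of 7. Library 1 lies with or above the controls for the immediate early genes and below all of them for the oligodendrocyte markers.

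Genes of oligodendrocytes and myelin were among those that rose without libraries 1 and 3. All 8 oligodendrocyte markers were higher in both fits, with a median log2 fold change of 0.12 in 7 against 7 and 0.31 without these libraries. In the latter fit all 8 had an unadjusted p under 0.05 and edgeR called 1, Mobp, whereas DESeq2 called 5. In 7 against 7 edgeR, DESeq2 and limma-voom called 0 and no marker had an unadjusted p under 0.05. Mobp, a structural protein of myelin, ranged from 1011 to 1398 CPM in control (median 1147) and held 490, 1611, 1124, 1711, 1578, 1679 and 1271 CPM in ad libitum libraries 1 to 7. Library 1 was below every control, libraries 3 and 7 were among them and the other 4 were above. Its log2 fold change was 0.21 (adjusted p = 0.651, edgeR) with all libraries and 0.42 (SE 0.0881, adjusted p = 0.0333) without libraries 1 and 3. Mog, a surface protein of the sheath, had values of 0.12 and 0.32 (adjusted p = 0.783 and 0.0622). In the plot of early response genes and oligodendrocyte markers, library 1 is the lowest for each marker plotted.

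Further genes that oligodendrocytes express rose without libraries 1 and 3. Erbb3, a neuregulin receptor, was at 12.03 to 15.2 CPM in control and at 8.83 in library 1 and 18.4 to 21.1 in the other 6 ad libitum libraries, which did not overlap the controls. Its log2 fold change was 0.54 (SE 0.0702, adjusted p = 0.000675, edgeR), and 0.43 (adjusted p = 0.189) with all libraries. Mal, a proteolipid of myelin, rose by 0.43, Trf, which codes for the iron carrier transferrin, by 0.40, Gjc3, a connexin of oligodendrocytes, by 0.32 and Tmem88b by 0.44 (adjusted p = 0.0111, 0.0286, 0.0286 and 0.0111). Library 1 held the lowest value of all 14 for each of these 4 genes, for example 140 CPM of Trf against 295 to 423 in control. Markers of oligodendrocyte precursors changed less: of 6, 4 were higher with a median of 0.04. Of these markers edgeR called 0 and DESeq2 1 (C1ql1), with 2 at an unadjusted p under 0.05. Their mean log2 CPM was 4.67 to 4.805 in control. In ad libitum libraries 2, 4, 5, 6 and 7 it was 4.96, 4.87, 4.83, 4.78 and 4.82, above every control except in library 6.

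Some lists of region markers also lay higher or lower in ad libitum risperidone libraries, and their part in these results was not tested. The thalamus list, 10 genes, had a mean log2 CPM of 3.15 to 3.37 in control and 3.18 to 3.90 in ad libitum libraries 2 and 4 to 7. All 10 thalamus markers were then higher, with a median of 0.25, 5 at an unadjusted p under 0.05 and 0 called by edgeR, DESeq2 or limma-voom. Tcf7l2, a thalamic transcription factor, was highest in library 3 at 36.2 CPM, then in library 6 at 31.8 and library 7 at 27.1, against 12.7 to 20.01 in control. Of the ependymal markers 8 of 9 had a value below 0 in each fit, with a median of −0.32 in 7 against 7 and −0.24 without libraries 1 and 3, and 7 had an unadjusted p under 0.05. Their mean log2 CPM was 3.03 to 3.24 in control and 2.66 to 3.10 in libraries 2 and 4 to 7. The edgeR test called 0 ependymal markers in either fit, limma-voom 0, and DESeq2 2 in 7 against 7 and 1 (Rsph1) without libraries 1 and 3.

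**Figure D5:**
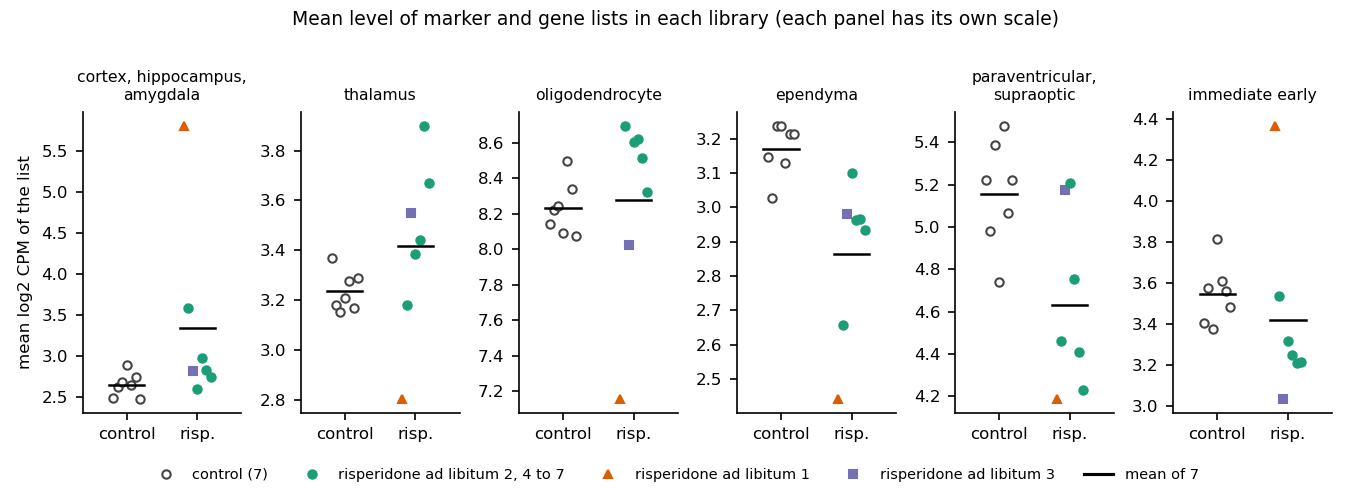
Mean log2 CPM of 5 lists of region or cell type markers and of the immediate early genes in each library, with a separate y axis in each panel. Points are libraries and bars are means of 7. Ad libitum library 1 stands apart for cortical, thalamic, oligodendrocyte and ependymal markers, and 3 of the other risperidone libraries and library 1 lie below every control for the paraventricular and supraoptic markers.

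Markers of the paraventricular and supraoptic nuclei varied widely among the libraries of both groups. Their list mean was 4.74 to 5.48 in control and 4.19 to 5.21 in ad libitum risperidone, with a median log2 fold change over 7 genes of −0.40, and −0.39 without libraries 1 and 3. Oxt, oxytocin, was at 46.8 to 160 CPM in control and at 25.0, 30.9, 119, 108, 55.0, 36.6 and 16.4 in ad libitum libraries 1 to 7. Libraries 3 and 4 were near the control median and 4 libraries were below every control. Its log2 value was −0.99 (SE 0.463, adjusted p = 0.367, edgeR), an error far above that of the genes called. Otp, a transcription factor of these neurons, was at 38.4 to 52.0 CPM in control and 24.3 to 42.5 in ad libitum risperidone (−0.40, adjusted p = 0.233). Avp, vasopressin, had a value of −1.12 and Trh, thyrotropin-releasing hormone, of −0.42 (adjusted p = 0.367 and 0.310). Members of this list passed in 0 cases with edgeR, DESeq2 or limma-voom in either fit, with 5 of 7 at an unadjusted p under 0.05. In the plot of list levels the 4 low libraries are 1, 2, 6 and 7.

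In the feeding circuit itself the test called 0 of 21 genes in either fit, with 6 at an unadjusted p under 0.05 in 7 against 7 and 7 without libraries 1 and 3. Mc4r had the lowest adjusted p of the list in 7 against 7, and Npy1r without libraries 1 and 3. Mc4r ranged from 4.98 to 7.38 CPM in control (median 5.34) and from 2.68 to 4.85 in ad libitum risperidone (median 4.24), so that all 7 risperidone libraries lay below every control. The log2 fold change was −0.49 (SE 0.105, adjusted p = 0.0736, edgeR), and −0.44 (SE 0.102, adjusted p = 0.0605) without libraries 1 and 3. DESeq2 called it in both fits and limma-voom in 7 against 7. The lowest value, 2.68 CPM in library 3, rests on 19 counts, and the control libraries held 89 to 141. Mc3r, the other melanocortin receptor of hypothalamus, had a value of −0.31 (adjusted p = 0.253). Npy1r, a receptor of neuropeptide Y, was at 20.1 to 26.1 CPM in control, 27.0 in library 1 and 17.3 to 20.7 in the other ad libitum libraries, with an adjusted p of 0.296 with all libraries and 0.0593 without libraries 1 and 3.

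The arcuate peptides showed wide spread among the risperidone libraries. Pomc held 22.8, 35.6, 33.4, 44.4, 53.3, 32.3 and 26.5 CPM in ad libitum libraries 1 to 7, against 43.3 to 62.7 in control. Libraries 4 and 5 lay in the control range and 5 were below it, and the log2 value was −0.57 (adjusted p = 0.201, edgeR), or −0.46 (adjusted p = 0.254) without libraries 1 and 3. Npy held 72.9, 39.7, 85.3, 75.7, 44.4, 47.2 and 47.8 CPM, against 40.5 to 56.5 in control. Libraries 1, 3 and 4 were above every control, and its value went from 0.25 to 0.05 when libraries 1 and 3 were left out. Agrp ranged from 5.37 to 11.2 CPM against 6.64 to 10.95 in control, with values of −0.13 and −0.11. Its span overlaps Ripor1, Ctcf and other genes on the opposite strand, so its counts are uncertain. Cartpt, which codes for the satiety peptide CART, was at 89.2 to 128 CPM in control and 68.9 to 94.7 in ad libitum risperidone, a value of −0.31 (adjusted p = 0.189).

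Receptors that risperidone binds gave values of both signs, with none past the test. Of 16 listed 12 were tested, with a median of 0.06 in 7 against 7 and 0.03 without libraries 1 and 3, and edgeR, DESeq2 and limma-voom called 0 in either fit, with 2 and 4 at an unadjusted p under 0.05. Drd2 ranged from 24.7 to 29.9 CPM in control and from 14.6 in library 1 to 33.1 in library 2. Its log2 value was −0.05 (SE 0.117) with all libraries and 0.09 (SE 0.0757) without libraries 1 and 3, a change of sign. Htr2a, at 21.6 to 25.3 CPM in control and 17.7 to 33.3 in ad libitum risperidone, had a value of 0.07 (SE 0.105) and, without libraries 1 and 3, of −0.0048, also a change of sign. Htr2c, the serotonin 2C receptor, was at 72.3 to 93.1 CPM in control and 65.8 to 106 in ad libitum risperidone, with values of 0.10 and 0.13. Hrh1, the histamine H1 receptor, had the lowest p of the list without libraries 1 and 3. It was at 26.3 to 29.7 CPM in control and 19.7 to 28.2 in ad libitum risperidone, with values of −0.18 and −0.16 (adjusted p = 0.222 and 0.188). Adra1d, the alpha-1D adrenergic receptor, had the farthest value from 0 among the receptors described here, at a very low level. It was at 0 to 0.624 CPM in control and at 3.93, 1.56, 0.563, 0.340, 0.395, 0.506 and 0.675 in ad libitum libraries 1 to 7. Libraries 1, 2 and 7 lay above every control, and the log2 value was 1.84 (adjusted p = 0.193) with all libraries and 1.12 (SE 0.452, adjusted p = 0.295) without libraries 1 and 3.

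Among the genes called without libraries 1 and 3, several belong to none of these lists. Adgrl4, an adhesion receptor of vascular endothelium, was at 15.3 to 19.5 CPM in control (median 17.6) and 16.9 in library 1, 19.6 in library 3 and 22.8 to 26.1 in the other 5. It rose by 0.46 in log2 units (SE 0.0615, adjusted p = 0.000851, edgeR) and passed in all 23 other settings of that fit, whereas the 9 endothelial markers had a median of 0.11. The tools edgeR, DESeq2 and limma-voom called 0 of those 9 markers in either fit, with 1 at an unadjusted p under 0.05. Camk2n1, an inhibitor of the kinase CaMKII, was at 243 to 267 CPM in control, 789 in library 1 and 251 to 354 in the other 6. Its rise was 0.30 without libraries 1 and 3 (SE 0.0613, adjusted p = 0.0286), and with them the value was 0.55 with an SE of 0.175 (adjusted p = 0.209). Cyp2j12, a cytochrome of the arachidonic acid pathway, held 0.907 CPM in library 1 against 4.05 to 6.45 in the other 6 and 2.46 to 4.18 in control, a rise of 0.72 (SE 0.136, adjusted p = 0.0231). Kctd17 rose by 0.22 (adjusted p = 0.0286), with 80.8 CPM in library 1 against 53.7 to 62.6 in the other 6 and 48.9 to 56.0 in control.

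Of the genes that fell outside the lists, Ampd3, an AMP deaminase, was at 44.5 to 49.0 CPM in control and 33.7 to 43.4 in ad libitum risperidone. All 7 risperidone libraries lay below every control, and it fell by 0.23 without libraries 1 and 3 (SE 0.0426, adjusted p = 0.0221, edgeR), with an adjusted p of 0.0736 in 7 against 7. Its span overlaps B430319F04Rik and Rnf141 on the opposite strand. Itih3, an inter-alpha-trypsin inhibitor heavy chain that astrocytes express, was at 408 to 465 CPM in control and 240 in library 1 and 344 to 391 in the other 6, again with no overlap. It fell by 0.23 (SE 0.0440, adjusted p = 0.0270). The astrocyte list of 10 genes had a median of −0.05 in 7 against 7 and 0.02 without libraries 1 and 3, where Aldh1l1, a folate enzyme that marks astrocytes, was higher by 0.18 with an adjusted p of 0.0678.

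Of the remaining lists, genes of the interferon response were lower in 19 of 21 cases with a median of −0.31 in 7 against 7, and in 18 with a median of −0.25 without libraries 1 and 3. The 3 tools called 0 of them in either fit, with 10 and 5 at an unadjusted p under 0.05. Ifit1, an interferon-induced RNA-binding protein, was at 2.80 to 9.31 CPM in control and 3.08 to 4.90 in ad libitum risperidone. Its groups overlapped because control library 7 held 2.80, and the log2 value was −0.72 (adjusted p = 0.196, edgeR). Of 21 genes of cholesterol and fatty acid synthesis 12 were higher, with medians of 0.0038 and 0.02, and the tools called 0, with 1 and 2 at an unadjusted p under 0.05. Heat shock and endoplasmic reticulum stress genes were lower in 17 of 19 in 7 against 7, with a median of −0.08, but in 12 without libraries 1 and 3, with a median of −0.05. Dnajb1, a heat shock co-chaperone, was at 76.3 to 89.9 CPM in control and at 53.7 in library 3 and 72.0 to 74.8 in the other 6 ad libitum libraries, with no overlap and an adjusted p of 0.135 and 0.0738 (edgeR). DESeq2 called Dnajb1 fallen in both fits and Herpud1 in 7 against 7, and limma-voom called 0 of this list, of which 5 and 2 had an unadjusted p under 0.05 with edgeR. Microglial markers had medians of −0.0015 and 0.04, with 0 called by the 3 tools and 0 of 9 at an unadjusted p under 0.05 in either fit.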

How the data were processed

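The authors deposited 1 table of raw counts per gene for the 20 libraries, whole numbers with no normalization. Per the labels' protocols, total RNA was read on the DNBseq platform in pairs of 150 bp. STAR, featureCounts and DESeq2, with GRCm38 and mm10, are named per the submitters' processing notes. For versions, annotation release and strand setting, nothing is stated in the sources used here. Of 55471 genes, 55230 were matched by identifier to GENCODE symbols of GRCm38. Counts in genes that were not matched made up 0.00354% of the total.

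Groups came from the labels. Genes were kept with filterByExpr (minimum count 10), scaled with TMM, and tested two-sided by quasi-likelihood in edgeR 4.0.16 (R 4.3.3), in 1 model of all 20 libraries and again of 18 without ad libitum libraries 1 and 3. A gene was called at a Benjamini-Hochberg adjusted p under 0.05 over all genes tested. CPM used TMM factors of the 20 libraries, and log2 CPM a prior count of 2. Intervals are 95%. The fitting code was tested on simulated counts. Between libraries of 1 group, chi-square divided by its degrees of freedom was at least 2.641, so each library counted once.

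The comparison, the 42 gene lists (21 of pathways, 21 of cell type or region markers) and the tests were chosen with earlier results of these data known. Lists are described by counts and medians and were not tested. The lists not described in the report had the following medians in 7 against 7 and without libraries 1 and 3: opioid receptors 0.04 and −0.01, dopamine synthesis −0.07 and 0.04, prolactin and STAT5 −0.02 and −0.0011, coagulation and protease inhibitors −0.10 and −0.07, acute phase and reactive glia −0.10 and −0.18, clock 0.03 and −0.04, thyroid hormone 0.09 and −0.02, striatum −0.05 and −0.09, arcuate −0.13 and −0.11, ventromedial −0.17 and −0.08, lateral hypothalamus −0.22 and −0.10, suprachiasmatic −0.02 and 0.17, pituitary −0.43 and −0.33, choroid plexus −0.04 and −0.05, tanycyte −0.0020 and −0.07, pericyte and fibroblast −0.37 and −0.30, blood −0.24 and −0.03, general neuron −0.02 and 0.01, cortex, hippocampus and amygdala 1.19 and 0.20, and ribosomal RNA-like 1.12 and 0.09. Named genes were Mc4r, Pomc, Agrp, Npy, Drd2, Htr2a and Htr2c, every gene called in 7 against 7, up to 12 risen and 12 fallen with the smallest p without libraries 1 and 3 at a mean of at least 1 CPM, leaving out predicted genes, and the 3 members of each list with the smallest p in that fit. Mc3r, Nkx2-1, Rasgrp1, Fkbp5, Fosl2, Nr4a3 and other genes outside this rule were chosen after their values were seen. Not every gene that the rule names is printed, and 1 list member among them is not reported here. Alternatives were other scalings and filters, DESeq2 1.42.0, limma-voom with quality weights (limma 3.58.1), robust dispersion, the 2 groups alone, a cortical marker covariate, ribosomal RNA-like genes left out, the replicate number as a block, and each library left out in turn.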

Additional observations from a re-analysis of the deposited data

Results flagged for a closer look

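A value was singled out when the highest or lowest of the 7 libraries of a group lay far from the other 6 by Dixon's test on log2 CPM. For independent genes chance gives about 1 in 20 such values, or 13.8 of the 276 groups of values examined for the 138 named genes. Here 48 were found. Many of these genes were named by the fit without libraries 1 and 3, and genes of a shared tissue move together. The count of 48 therefore cannot be tested against 13.8. Of these, 28 were in ad libitum risperidone library 1, 7 in library 3, 1 in library 6 and 12 in control libraries.

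In ad libitum library 1, genes of cortical and other forebrain neurons were high. The library held 19.5 CPM of Neurod6 against 1.27 to 3.96 in the other 6 of its group, 52.4 of Bhlhe22, 789 of Camk2n1 against 251 to 354, 16.7 of Vip against 1.01 to 2.03, 205 of Rbfox3, 61.2 of Thrb and 181 of Klf9. It was also high in Egr1 (115 CPM), Crhbp (26.2), Oprd1 (16.5), Npy1r (27.0), Kctd17 (80.8) and Penk (206). Low in it were Hcrt, a marker of the lateral hypothalamus, with 184 CPM against 328 to 450, and Prdm12, an arcuate marker, with 0.665. It also held 20.1 CPM of Gal, 27.5 of Ddc, 14.6 of Drd2 and 2.30 of Tshb, a pituitary marker, each below the other 6. Oligodendrocyte genes were low as well, with 490 CPM of Mobp, 26.3 of Mog, 8.83 of Erbb3 and 25.7 of Tmem88b. Further low values were 11.7 CPM of A2m, 0.907 of Cyp2j12, 240 of Itih3, 1288 of Scd2 and 0.907 of Tmem212.

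In ad libitum library 3, ribosomal RNA-like genes were high, with 43180 CPM of mt-Rnr2 against 6129 to 8469 in the other 6, 31569 of mt-Rnr1 and 4337 of Gm26917. Alas2, an enzyme of heme synthesis, was at 11.97 CPM there against 1.39 to 3.56. The library was low in Dnajb1 (53.7 CPM), Cpe (1126) and Mc4r (2.68). Library 6 was low in Spry1 (6.46 CPM against 7.68 to 8.71).

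Among control libraries, library 7 was low in genes of meninges and blood, with 1.73 CPM of Slc6a13 against 11.3 to 19.5 in the other 6, 13.8 of Col1a2, 3.47 of Hba-a2 and 0 counts of Igf2. Control library 2 held 0 counts of Adra1d and 1429 CPM of Cpe. Control library 4 was high in Fos (28.8 CPM against 17.5 to 21.7) and Osmr (8.89), library 6 high in Pdk4 (17.0) and low in Sdf2l1 (10.6), library 5 high in Mog (69.5) and library 3 high in Rarres2 (12.8).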

How the results depend on the processing

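With all 7 against 7 libraries, 3 genes rose and 8 fell. These counts became 40 and 70 with DESeq2, 17 and 34 with limma-voom, 0 and 3 with the 2 groups fitted alone, 9 and 14 with the cortical marker level as a covariate, and 22 and 26 without ad libitum libraries 1 and 3. The replicate number as a block gave 0 and 1, with 2045 genes at an unadjusted p under 0.05. Leaving out 1 library at a time gave 0 to 14 risen and 0 to 21 fallen. Without libraries 1 and 3, 22 rose and 26 fell, against 183 and 154 with no filter on low counts, 109 and 100 with DESeq2, 84 and 60 with the 2 groups alone, and 8 and 13 with the cortical covariate. Leaving out 1 more library gave 6 to 53 and 5 to 33, and the replicate block 29 and 30, with 34 of the 48 genes shared. With the cortical covariate 17 of the 48 stayed called. Without control library 4, 11 of the 48 did, and also 11 without ad libitum library 6. The cause of these shifts was not tested. RLE and upper quartile scaling, a minimum of 1 CPM, robust dispersion and leaving out ribosomal RNA-like genes kept each count within 1.5 times. The replicate numbers showed no clear pairing of the samples: correlations of deviations ran from −0.137 to 0.304. Of 7 risperidone libraries, 1 correlated best with its own number. The deviations were taken from group means that include libraries 1 and 3, so the check cannot exclude pairing. Every one of the 11 and of the 48 genes kept its direction in each setting in which it was tested. In the first fit 10 of the 11 or more were called in each of the scalings and filters. With the cortical covariate 7 of the 11 stayed called, and 3 with the 2 groups alone.

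Of the named genes in 7 against 7, these changed sign in some setting. With the cortical covariate, Agrp became 0.033, Drd2 0.12, Htr2a −0.061, Oprd1 −0.053, Thrb −0.21, Crym −0.084 and C1qa −0.0034. With limma-voom, Drd2 became 0.05 and Thrb −0.11. Without libraries 1 and 3, Drd2 became 0.085, Htr2a −0.0048 and Thrb −0.14. Scd2 became −0.00447 with upper quartile scaling and −0.0072 with no filter. When 1 library was left out, values ran from −0.11 to 0.062 for Drd2 and −0.0201 to 0.14 for Htr2a, with the sign changed without ad libitum library 1. They ran from −0.0098 to 0.087 for Htr7, −0.00115 to 0.0764 for Insig1, −0.0178 to 0.048 for Scd2, −0.14 to 0.0752 for Thrb, −0.0328 to 0.0848 for S100b, −0.0077 to 0.0866 for C1qa and −0.0568 to 0.47 for Alas2. Precision rests on 7 libraries a group, and for Mc4r on 19 to 141 counts a library.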
